A study of Oryctolagus cuniculus with 6 samples.

Results

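This account is about 7 mature microRNAs (miRNAs) of striated muscle, out of 577 listed in a small RNA sequencing table of extracellular vesicles from rabbit seminal plasma. The members were chosen by name: miR-206-3p and miR-1-3p, which share a seed, their usual genomic partners miR-133b-3p and miR-133a-3p, and the miRNAs that lie within myosin heavy chain genes, miR-208a-3p, miR-208b-3p and miR-499-5p. The starting point of the choice was the difference of miR-206-3p between the groups in these same libraries, and the others were added for their tissue and seed. The difference between the groups is therefore given for the members as a description, with no test.

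The vesicles came from bucks of a cross of California and New Zealand white rabbits, aged 10 to 12 months. Of 14 males that were screened over 1 month, with 8 ejaculates each, 3 with low and 3 with high semen quality were taken, and the resulting groups are labelled Sub-fertile and Fertile. Each group has 3 libraries, described as biological replicates made from 2.5 mL of seminal plasma each. The groups differ by no treatment or genotype in the labels. Pooling of males within a replicate was not given in the sources used here.

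MicroRNAs are short RNAs cut from the arms of a hairpin precursor, and they repress transcripts that pair with their seed, the bases near the 5′ end. The striated muscle miRNAs, often called myomiRs, are switched on by myogenic transcription factors. In mammals miR-1 and miR-133a are made in both heart and skeletal muscle, miR-206 and miR-133b chiefly in skeletal muscle, and miR-208a, miR-208b and miR-499 together with the myosin genes that house them. In mice miR-206 is known for promoting myoblast differentiation and the reinnervation of muscle after nerve injury. None of these is a usual marker of the epithelial glands that secrete most of the seminal plasma.

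In the rabbit gene table of RefSeq (assembly mOryCun1.1), all 7 hairpins had a gene. MIR206 and MIR133B lay within 10 kb of each other, and so did MIR1-2 and MIR133A, which both lay inside MIB1, a ubiquitin ligase gene. MIR208A overlapped MYH6, MIR208B overlapped MYH7 and MIR499 overlapped MYH7B, which encode myosin heavy chains. The study's build is OryCun2.0, so the table was used only to find names and neighbouring genes. The mature sequences were not used here.

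The deposited values are counts scaled to library depth, called scaled CPM below. Whole counts were recovered from them, 129387, 242078 and 636929 per library in Sub-fertile replicates 1 to 3, against 772619, 536026 and 453675 in Fertile replicates 1 to 3. A single count was worth 6.24, 4.08 and 1.74 units in the Sub-fertile libraries and 1.33, 1.95 and 2.32 units in the Fertile ones. Sub-fertile replicate 1, the shallowest library, also stood furthest from the others of its group: over the tested miRNAs its log2 profile had r = 0.920 and 0.916 with Sub-fertile replicates 2 and 3. Those replicates had r = 0.959 with each other, and Fertile pairs had r from 0.975 to 0.981, all across miRNAs, which are not independent replicates.

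Of the 7 members, 3 had counts and 4 had none in any library. Those with counts were miR-206-3p with 251 counts over all libraries, miR-1-3p with 54 and miR-499-5p with 29. Each of the 3 was above 0 in all 6 libraries. The 4 at 0 were miR-133a-3p, miR-133b-3p, miR-208a-3p and miR-208b-3p. The other arms of the 7 hairpins were listed as well and stood at 0 in every library, so that 11 of 14 rows had no count. The recovered striated muscle counts were thus those of miR-206-3p, with small amounts of miR-1-3p and miR-499-5p. miR-133a-3p, a defining miRNA of striated muscle, was at 0. The assignment of reads among near-identical miRNAs was not given, so the values of 0 describe the recovered counts only.

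miR-206-3p was the member that set the groups apart. Its signal was 174.8, 216.5 and 252.3 scaled CPM in Sub-fertile replicates 1 to 3, against 9.33, 27.2 and 9.27 scaled CPM in Fertile replicates 1 to 3. All 3 Sub-fertile libraries lay above all 3 Fertile libraries, and the lowest Sub-fertile value was 6.42 times the highest Fertile value. The means were 214.5 ± 38.8 scaled CPM in Sub-fertile and 15.3 ± 10.4 scaled CPM in Fertile vesicles (SD, n = 3 each).

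These signals rested on 28, 53 and 145 counts in the Sub-fertile libraries and on 7, 14 and 4 counts in the Fertile libraries. The 95% counting interval (exact Poisson) was 116 to 253 scaled CPM in Sub-fertile replicate 1, 162 to 283 in replicate 2 and 213 to 297 in replicate 3. In the Fertile group it was 3.75 to 19.2 scaled CPM in replicate 1, 14.9 to 45.7 in replicate 2 and 2.53 to 23.7 in replicate 3. The Sub-fertile intervals overlapped one another and lay wholly above the Fertile ones. Such intervals cover counting error only, since the unit counted, reads or unique molecules, was not given in the sources used here.

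**Figure D1:**
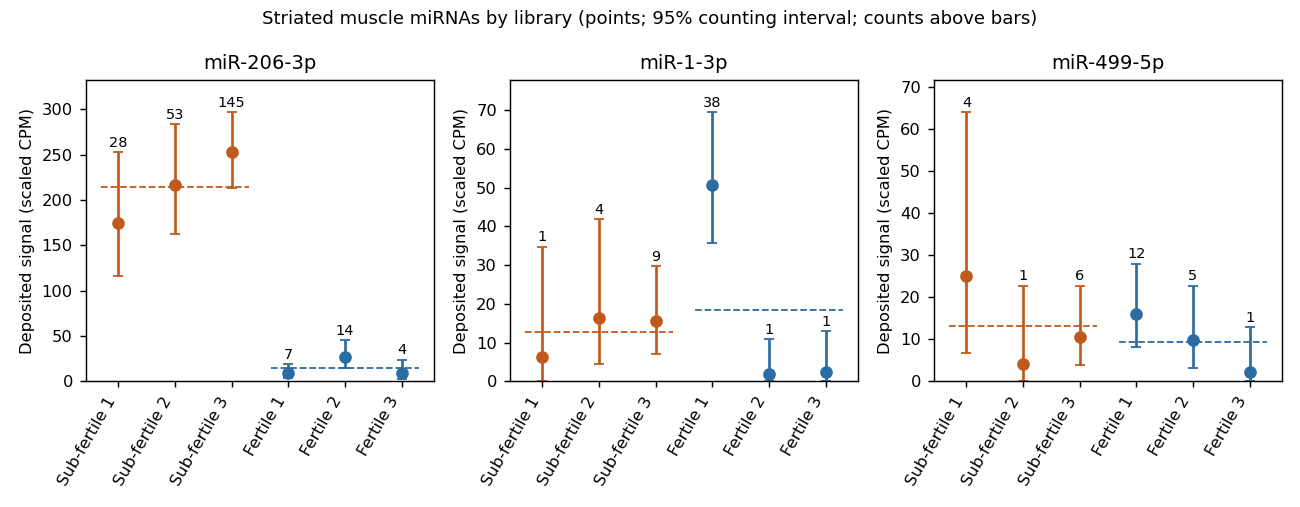
Deposited signal (scaled CPM, linear axis with its own scale in each panel) of miR-206-3p, miR-1-3p and miR-499-5p in 3 Sub-fertile (orange) and 3 Fertile (blue) libraries. Bars are 95% counting intervals, the numbers above them are recovered counts and dashed lines are group means; miR-206-3p lies between 174.8 and 252.3 in Sub-fertile and between 9.27 and 27.2 in Fertile libraries, while the groups overlap for the other miRNAs.

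As plain CPM, its counts over the library total with no scaling factor, miR-206-3p had 216, 219 and 228 in Sub-fertile replicates 1 to 3, against 9.06, 26.1 and 8.82 in Fertile replicates 1 to 3. The Sub-fertile values rested on 28, 53 and 145 counts, in libraries of 129387 to 636929 counts. The part of depth in the difference was not tested. By rank within its library, miR-206-3p stood at 120, 108 and 102 in the Sub-fertile libraries and at 232, 184 and 229 in the Fertile ones. The miRNAs above 0 numbered 271, 285 and 307 in Sub-fertile replicates 1 to 3 and 310, 303 and 305 in Fertile replicates 1 to 3. miR-206-3p thus ranked higher in each Sub-fertile library than in any Fertile one.

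On the log2(signal + 1) scale the difference (Sub-fertile minus Fertile) was 3.89 (SE 0.49, limma), which ranked 1 of the 234 miRNAs with enough signal to be tested. The summed counts gave a ratio of Sub-fertile to Fertile of 15.8, with a counting interval of 10.4 to 24.9. The ratio of the mean signals was 14.0. Between single libraries the ratio reached 27.2, from the highest Sub-fertile to the lowest Fertile value. The counting interval of this ratio, and of each such ratio below, pools the libraries of a group and leaves out the spread between them. The size of the difference is thus known only roughly, because the Fertile side rests on 25 counts in all and each group on 3 libraries. A vesicle preparation is a bulk sample, so more vesicles that carry miR-206-3p and more copies per vesicle cannot be told apart.

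The spread within the groups differed in size. The Sub-fertile values of miR-206-3p had a coefficient of variation of 18.1% and a highest value 1.44 times the lowest. The Fertile values had a coefficient of variation of 67.8% and a highest value 2.94 times the lowest, at counts where the intervals of all 3 libraries overlap. Leaving out 1 library at a time moved the log2 difference between 3.64 and 4.37, with the lowest value without Fertile replicate 3 and the highest without Fertile replicate 2. Without Sub-fertile replicate 1, the library that stood apart, it was 4.03 (SE 0.51).

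Across the whole table, limma called 8 of 234 miRNAs at a Benjamini-Hochberg adjusted p of 0.05, which is 3.42%, with 2 higher (0.855%) and 6 lower (2.56%) in Sub-fertile vesicles. At an unadjusted p under 0.05 there were 45 (19.2%), and on recovered counts edgeR called 8 (3.42%) and DESeq2 17 (7.26%). Of the 3 members in the fit miR-206-3p was among the 2 higher ones. It was chosen for this difference, so its place there is no test of it. Groups that did not overlap were found for 22 miRNAs above (9.4%) and 38 below (16.2%). Among the members 1 of 3 was of this kind, miR-206-3p. Since the choice of the members began from this comparison, nothing is read from these counts. A miRNA was tested where it had 10 or more scaled CPM in at least 3 of 6 libraries, and miR-206-3p would have passed that filter through its Sub-fertile libraries alone.

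**Figure D2:**
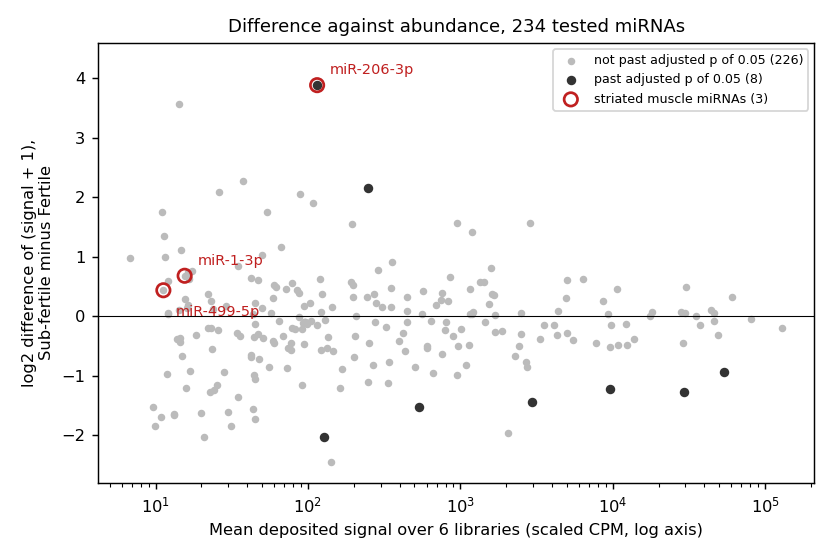
Log2 difference of (signal + 1), Sub-fertile minus Fertile, against the mean deposited signal over 6 libraries (log axis) for 234 tested miRNAs. Dark points passed a limma adjusted p of 0.05 and red rings mark the 3 striated muscle miRNAs with counts; miR-206-3p stands at 3.89 above all other points, while miR-1-3p (0.68) and miR-499-5p (0.44) lie among low miRNAs near 0.

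The 6 tested miRNAs next to miR-206-3p in mean signal are given for scale alone, since miR-206-3p was chosen for its difference and they were not. They were miR-150-5p, miR-15b-5p and miR-374b-5p above it and miR-184-3p, miR-148a-5p and miR-652-3p below it, with 264 to 328 counts each over all libraries. Their log2 differences ran from -0.56 (SE 0.38, miR-150-5p) to 1.90 (SE 0.87, miR-184-3p), and limma called none (adjusted p from 0.28 to 0.90). The groups overlapped for all 6. For miR-184-3p, the highest of them, the signal was 137.4, 24.5 and 396.7 scaled CPM in Sub-fertile and 22.7, 33.1 and 32.4 scaled CPM in Fertile libraries, so 1 Sub-fertile library lay within the Fertile range.

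miR-1-3p has the seed of miR-206-3p and is among the most abundant miRNAs of heart and skeletal muscle. Its signal was 6.24, 16.3 and 15.7 scaled CPM in Sub-fertile replicates 1 to 3, against 50.7, 1.95 and 2.32 scaled CPM in Fertile replicates 1 to 3. The counts behind it were 1, 4 and 9 in the Sub-fertile libraries and 38, 1 and 1 in the Fertile libraries. Fertile replicate 1 held the highest value of all and the other Fertile libraries the lowest, so the Sub-fertile values lay inside the Fertile range. Fertile replicate 1 therefore held 38 of the 54 counts of miR-1-3p, and with a counting interval of 35.8 to 69.5 scaled CPM it stood above the intervals of Fertile replicates 2 and 3, which reached 10.8 and 12.9.

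The direction of miR-1-3p depended on how the groups were summarised. The mean was 12.7 ± 5.64 scaled CPM in Sub-fertile and 18.3 ± 28.0 in Fertile vesicles (SD, n = 3 each), a ratio of means of 0.696. The log2 difference was 0.68 (SE 1.20), with the opposite sign, and it became 2.03 (SE 1.07) without Fertile replicate 1 and -0.033 (SE 1.30) without Fertile replicate 2. The ratio of summed counts, Sub-fertile to Fertile, was 0.612 with a counting interval of 0.307 to 1.15. No direction can be given for this miRNA.

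miR-499-5p comes from the myosin gene MYH7B and is known in mice for favouring slow muscle fibres. Its signal was 25.0, 4.08 and 10.4 scaled CPM in Sub-fertile replicates 1 to 3, against 16.0, 9.73 and 2.32 scaled CPM in Fertile replicates 1 to 3. It rested on 4, 1 and 6 counts in the Sub-fertile and 12, 5 and 1 counts in the Fertile libraries. The groups overlapped, and the counting interval of Sub-fertile replicate 1 alone, 6.81 to 64.0 scaled CPM, covered 3 of the other 5 values. Its log2 difference was 0.44 (SE 0.98), with the opposite sign without Sub-fertile replicate 1 (-0.15) or without Fertile replicate 3 (-0.24). The ratio of summed counts was 1.07 with a counting interval of 0.456 to 2.39.

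The make-up of the muscle counts also differed between libraries. miR-206-3p held 84.8%, 91.4% and 90.6% of the counts of the 3 miRNAs in Sub-fertile replicates 1 to 3, out of 33, 58 and 160 counts. In Fertile replicates 1 to 3 it held 12.3%, 70.0% and 66.7%, out of 57, 20 and 6 counts. The exact binomial interval was 68.1% to 94.9% in Sub-fertile replicate 1 and 45.7% to 88.1% in Fertile replicate 2, so these intervals overlapped. Fertile replicate 1 was the library where miR-1-3p led, with 66.7% (interval 52.9% to 78.6%) and miR-499-5p with 21.1% (interval 11.4% to 33.9%).

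**Figure D3:**
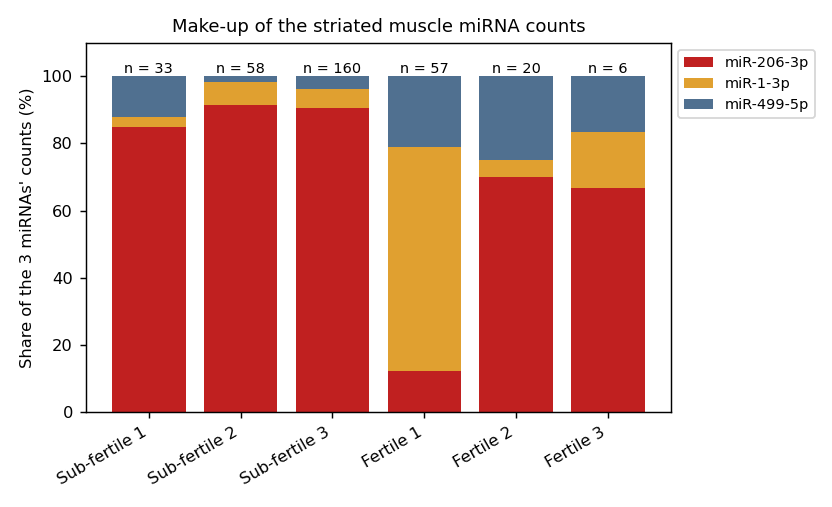
Share of the summed counts of miR-206-3p, miR-1-3p and miR-499-5p (percent) taken by each in 3 Sub-fertile and 3 Fertile libraries, with the number of counts above each bar. miR-206-3p takes 84.8% to 91.4% in the Sub-fertile libraries and 12.3% to 70.0% in the Fertile libraries, and miR-1-3p leads in Fertile replicate 1.

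Summed, the 3 miRNAs reached 206.1 to 278.4 scaled CPM in the Sub-fertile libraries and 13.9 to 76.0 scaled CPM in the Fertile libraries. In counts this was 251 of 1008394 counts in Sub-fertile and 83 of 1762320 counts in Fertile vesicles, or 249 plain CPM in Sub-fertile and 47.1 plain CPM in Fertile vesicles. Without miR-206-3p the remainder was 25 counts in Sub-fertile and 58 counts in Fertile vesicles, so the higher sum in Sub-fertile vesicles came from miR-206-3p.

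The partners that lie beside the detected hairpins were not seen. miR-133b-3p, whose hairpin neighbours that of miR-206, had 0 counts in Sub-fertile libraries that held 226 counts of miR-206-3p. By counting error alone this allows up to 3 counts, or 1.33% of the counts of its neighbour. In Fertile libraries 3 counts would be 12.0% of the 25 counts of miR-206-3p, so the limit there is loose. miR-133a-3p, beside miR-1, had 0 counts against 54 of miR-1-3p. A count of 0 allows 2.98 plain CPM over the Sub-fertile libraries and 1.70 over the Fertile ones. In a single library, at the same limit of 3 counts, it allows up to 18.7 scaled CPM in Sub-fertile replicate 1 and up to 4.0 in Fertile replicate 1.

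Other neighbours and arms of like abundance were counted for comparison, with limits chosen after the values were seen. Of 51 adjacent pairs of miRNA genes within 10 kb whose higher member had at least 125.5 counts, a 2-fold margin below miR-206-3p, 2 had a lower member at 0 in all libraries, the pair of miR-206 and miR-133b and that of miR-199a and miR-214. In both, the higher member lay between 125.5 and 502 counts, a range that held 14 of the pairs. Of 37 hairpins with both arms listed and a main arm in that range, 13 had the other arm at 0, among them miR-206. The assignment of reads among multiply encoded or near-identical miRNAs was not given in the sources used here. It bears on these counts and on the 0 counts of the lettered pairs miR-133a-3p and miR-133b-3p, and miR-208a-3p and miR-208b-3p. It also bears on miR-1-3p against miR-206-3p, which are alike in sequence.

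The members miR-208a-3p and miR-208b-3p, of the myosin genes MYH6 and MYH7, had 0 counts in all libraries. The limit is the same as for the miR-133 pair. With miR-499-5p at 11 counts in Sub-fertile and 18 counts in Fertile vesicles, the miRNAs of the myosin genes gave 29 counts in all, from MYH7B alone.

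Beyond the members, the myogenic differentiation list held 17 names of miRNAs that promote the exit of myoblasts from the cell cycle or muscle maturation, of which 12 were in the table, 3 were at 0 and 9 were tested. None rose and 1 fell, miR-27b-3p (limma; 4 had an unadjusted p under 0.05, edgeR called 1 and DESeq2 2). Over all 234 tested miRNAs limma called 0.855% higher and 2.56% lower, and 19.2% had an unadjusted p under 0.05. edgeR called 3.42% and DESeq2 7.26% of all tested. miR-27b-3p represses the muscle stem cell factor Pax3 in mice. It averaged 1568 ± 359 scaled CPM in Sub-fertile and 4305 ± 1417 in Fertile vesicles (SD, n = 3 each; log2 difference -1.43, limma adjusted p = 0.030), but did not pass without any 1 Fertile library or without Sub-fertile replicate 2. Nor did it pass with quantile normalization (adjusted p = 0.058), without a trend (0.081) or with a replicate block (0.12). miR-378-3p, hosted by a metabolic coactivator gene, had a log2 difference of -1.96 (SE 0.52, adjusted p = 0.073). DESeq2 called it (adjusted p = 0.040), and without Sub-fertile replicate 1 it passed at -2.66 (adjusted p = 2.9e-08). miR-181a-5p had -0.50 (SE 0.19, adjusted p = 0.20) and miR-26a-5p 0.49 (SE 0.20, adjusted p = 0.23), and miR-26a-5p passed at 0.63 without Sub-fertile replicate 1 (adjusted p = 0.0063) and at 0.69 with quantile normalization (0.010). Of the 9, 4 had a positive and 5 a negative log2 difference, with a median of -0.48, against -0.097 over all 234 tested miRNAs.

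The list for myoblast proliferation and satellite cell quiescence held 9 names, of which 6 were tested. None passed in either direction with limma, edgeR or DESeq2, against 3.42%, 3.42% and 7.26% of all 234 tested miRNAs. In the list 1 had an unadjusted limma p under 0.05, against 19.2% of all tested, and the median log2 difference was -0.047. The members with the smallest p were miR-125b-5p (-0.48, SE 0.16, adjusted p = 0.15), miR-195-5p (-1.69, SE 1.27) and miR-31-5p (0.33, SE 0.26). With 1 library left out, miR-195-5p ran from -3.01 (without Sub-fertile replicate 1) to -0.66 (without Sub-fertile replicate 2), and miR-31-5p from 0.18 to 0.49. miR-489-3p, which keeps muscle stem cells quiescent in mice, was at 0 in all libraries.

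Markers of other sources were measured beside miR-206-3p. Of 10 smooth muscle and stromal miRNAs 8 were in the table, 5 were at 0 in all libraries, among them miR-145-5p, a defining miRNA of smooth muscle, and 2 were tested. None passed with limma or edgeR, each of which called 3.42% of all 234 tested miRNAs. Of the 2, 1 had an unadjusted limma p under 0.05 (19.2% of all tested) and DESeq2 called 1 (7.26% of all tested), miR-143-3p. This miRNA, made with miR-145 in smooth muscle, had 9, 3 and 8 counts in the Sub-fertile and 1, 1 and 0 counts in the Fertile libraries, with a log2 difference of 3.56 (SE 1.04, limma adjusted p = 0.092). Like miR-206-3p, it met the filter of 10 or more scaled CPM through its Sub-fertile libraries alone. Its p-values and the DESeq2 call are therefore given as a description. The other tested one, miR-199a-3p, had a log2 difference of 0.16 (SE 0.36, limma adjusted p = 0.85) with groups that overlapped. Its signal was 181, 172 and 103 scaled CPM in Sub-fertile replicates 1 to 3 and 149, 93.4 and 162 in Fertile replicates 1 to 3. The summed level of that list ran from 127 to 244 scaled CPM in Sub-fertile and from 105 to 165 in Fertile libraries. The part of that list in the difference of miR-206-3p was not tested.

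Blood cell miRNAs were counted in the same way. Of 8 leukocyte miRNAs, all tested, 1 rose, miR-146a-5p, a miRNA that inflammatory signals induce. Over all 234 tested miRNAs 2 rose (0.855%). Of the 8, 6 had a positive and 2 a negative log2 difference (median 0.30), against 104 positive and 130 negative over all tested (median -0.097). miR-146a-5p had 418.4, 339.0 and 443.7 scaled CPM in Sub-fertile and 58.6, 118.7 and 99.6 scaled CPM in Fertile libraries, so the groups did not overlap (log2 difference 2.15, SE 0.33, limma adjusted p = 0.011). It did not pass without the mean-variance trend (adjusted p = 0.064) or with a replicate block (0.070). Of those that did not pass, miR-142-3p had 1.17 (SE 0.48) with groups that did not overlap, miR-150-5p had -0.56 (SE 0.38) and miR-146b-5p had -0.28 (SE 0.22). The leukocyte list summed to 1483 to 1873 scaled CPM in Sub-fertile and 1076 to 1379 in Fertile libraries, and its part in the difference of miR-206-3p was not tested. Of 8 red cell and platelet miRNAs 5 were in the table, 3 were at 0 in all libraries, among them miR-144-3p, and 1 was tested. The tested one was miR-486-5p, also on the myogenic differentiation list, with a log2 difference of -1.66 (SE 1.16). It had 0, 4 and 5 counts in Sub-fertile replicates 1 to 3 and 8, 7 and 13 in Fertile replicates 1 to 3. The 5 in the table summed to 6.24 to 20.4 scaled CPM in Sub-fertile and 12.0 to 37.1 in Fertile libraries. The platelet markers miR-126-3p and miR-126-5p were not in the table, so nothing can be said of them. Of 3 tested epithelial miRNAs none passed with limma, edgeR or DESeq2 (0 had an unadjusted limma p under 0.05), and their sum ran from 83613 to 137920 scaled CPM in Sub-fertile and from 96670 to 104006 in Fertile libraries.

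**Figure D4:**
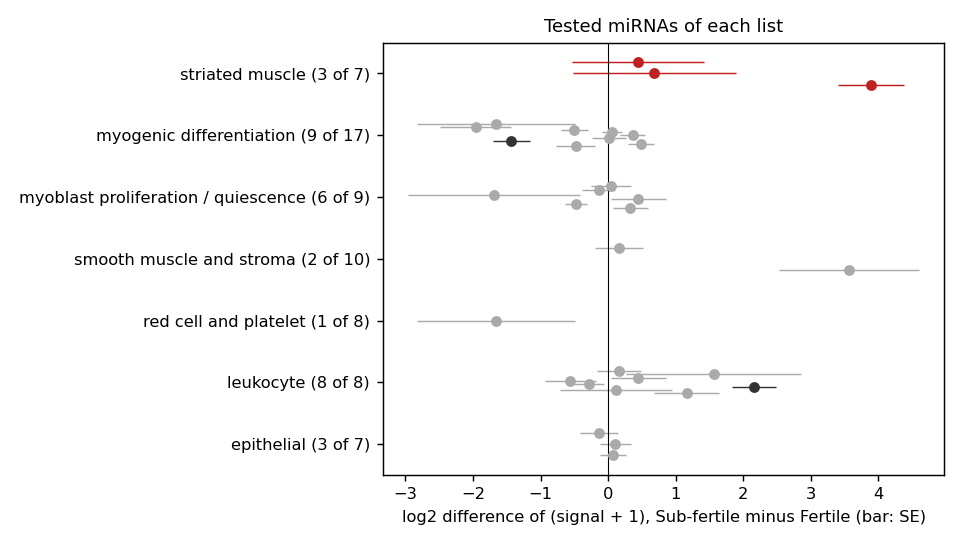
Log2 difference of (signal + 1), Sub-fertile minus Fertile, with its SE, for the tested miRNAs of each list (tested of named in brackets). Red points are the striated muscle miRNAs, given with no test, and dark points passed a limma adjusted p of 0.05, namely miR-27b-3p (-1.43) and miR-146a-5p (2.15); miR-206-3p stands at 3.89 and miR-143-3p, which did not pass, at 3.56.

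The miRNAs whose profile over the 6 libraries was most like that of miR-206-3p were picked by the Pearson correlation of log2(signal + 1), given as a description over 6 libraries that form 2 groups. They were miR-146a-5p (r = 0.972), miR-545-5p (0.938), miR-26b-5p (0.928), miR-143-3p (0.894), miR-30e-3p (0.873) and let-7i-5p (0.856). After the group means were taken off, r was 0.625 for miR-146a-5p, 0.592 for miR-545-5p, -0.22 for miR-26b-5p, 0.152 for miR-143-3p, 0.867 for miR-30e-3p and -0.18 for let-7i-5p. Within the groups r was thus highest for miR-30e-3p of the 6 and below 0 for miR-26b-5p and let-7i-5p. These values rest on 6 libraries, of which the Fertile ones held 7, 14 and 4 counts of miR-206-3p. No order or sign is read from them. miR-545-5p had 43.7, 28.6 and 55.7 scaled CPM in Sub-fertile and 10.7, 13.6 and 4.63 in Fertile libraries. miR-1-3p was not among them.

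For miR-1-3p the most alike profiles were those of miR-28-5p (r = 0.894), let-7d-5p (0.887) and miR-30c-5p (0.887), and within the groups r was 0.971, 0.888 and 0.886. miR-28-5p had 31.2, 44.9 and 52.2 scaled CPM in Sub-fertile and 46.7, 13.6 and 18.5 in Fertile libraries. Of the members that share a seed, miR-206-3p, chosen for its difference, was higher in the Sub-fertile libraries. miR-1-3p was highest in Fertile replicate 1, at 38 counts. Since the choice began from this comparison, nothing is read from the contrast of the 2.

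**Figure D5:**
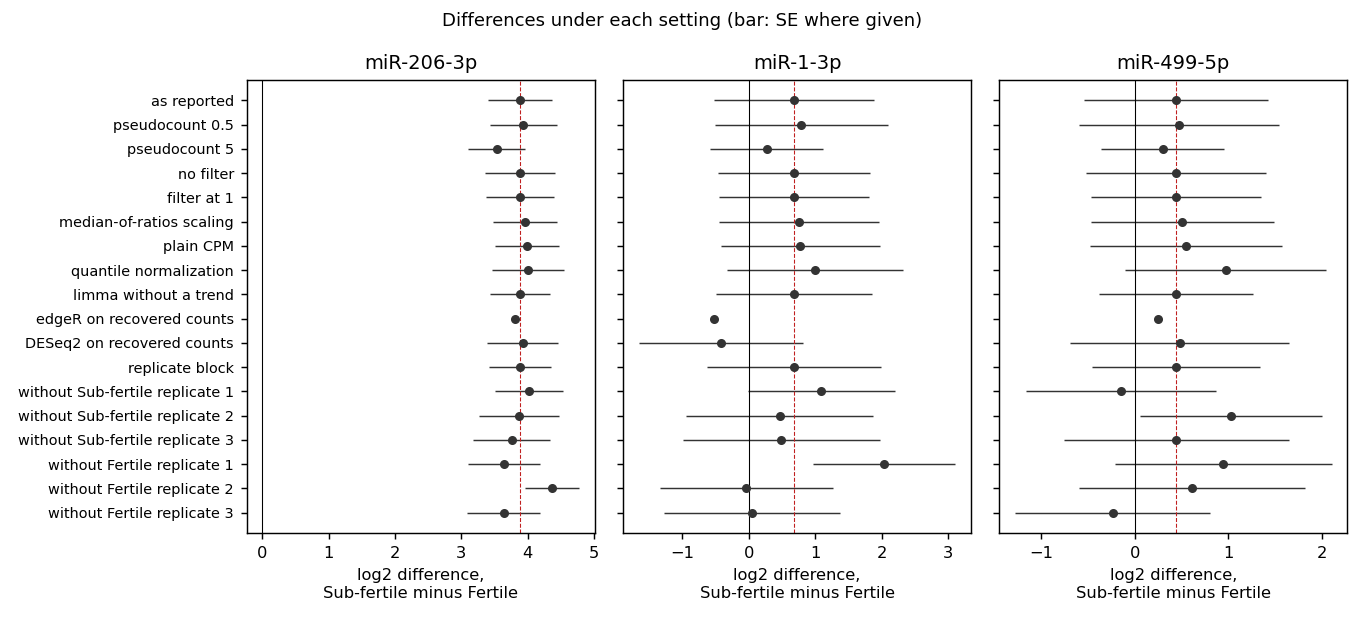
Log2 difference, Sub-fertile minus Fertile, of miR-206-3p, miR-1-3p and miR-499-5p under the reported fit (dashed line) and under each alternative, with its SE where the tool gives one. miR-206-3p stays between 3.53 and 4.37 under all of them, while miR-1-3p and miR-499-5p lie on either side of 0.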

How the data were processed

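Small RNA from seminal plasma vesicles was sequenced in 6 libraries. Per the labels' protocols, ultracentrifugation and size exclusion chromatography isolated the vesicles and a QIAseq kit was used for the libraries. The submitters' processing notes name Bowtie2 2.2.2, bcl2fastq, DESeq2 and OryCun2.0, with no role given. The authors deposited 1 normalized signal per miRNA, named CPM. Every value (100.0%, tolerance 1e-06) was a whole multiple of the smallest in its library, so counts were recovered; the implied factors, 0.902 to 1.24, equal edgeR's TMM factors. The main fit was limma 3.58.1 (R 4.3.3) with a mean-variance trend on log2(signal + 1), two-sided, on 234 miRNAs with 10 or more in at least 3 libraries, with Benjamini-Hochberg adjustment. The edgeR 4.0.16 quasi-likelihood test on recovered counts called 8 miRNAs, and DESeq2 1.42.0 called 17. Counting intervals are exact at 95%, and a count of 0 is given a limit of 3 counts.

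The members and lists were chosen with earlier results of these data known. Named miRNAs are the members, their other arms, the profiles most like miR-206-3p (6) and miR-1-3p (3), its 6 neighbours in mean, and per list those past the threshold plus up to 3 others with the smallest p. The replicates are biological per the labels; libraries of a group differed by a chi-square of at least 20.3 per degree of freedom, so none was a copy. The limma fit and an edgeR fit were tested on simulated counts, while the DESeq2 fit, the recovery of counts and the intervals were not.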

Additional observations from a re-analysis of the deposited data

How the results depend on the processing

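The alternatives were other pseudocounts (0.5 and 5), no filter and a filter at 1, median-of-ratios scaling, plain CPM, quantile normalization, limma without a trend, edgeR and DESeq2 on recovered counts, a replicate block, and leaving out each library. The log2 difference of miR-206-3p stayed within 3.53 to 4.0 in the settings with all libraries and within 3.64 to 4.37 with 1 library left out. That of miR-1-3p changed sign with edgeR (-0.53) and DESeq2 (-0.42), and ran from -0.033 to 2.03 with 1 library left out. That of miR-499-5p ran from -0.24 to 1.03 with 1 library left out. The median of all tested miRNAs, -0.097 as reported, was 0.020 with plain CPM and 0.061 with DESeq2.

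The count of miRNAs past the threshold, 8 as reported, was 5 with quantile normalization, 1 without a trend, 17 with DESeq2 (10 higher and 7 lower, against 2 and 6), 0 with the replicate block (limma; 43 at an unadjusted p under 0.05) and 3 to 39 with 1 library left out, the highest without Sub-fertile replicate 1. Of 27 tested list miRNAs, 2 passed as reported, 0 without a trend, 4 with DESeq2, 0 with the block and 1 to 5 with 1 library left out. Without a trend and with the block, neither miR-146a-5p nor miR-27b-3p passed, and with quantile normalization miR-26a-5p passed in place of miR-27b-3p. The cause was not tested. Same-numbered libraries had correlations of deviations from the group means of 0.045, -0.116 and 0.105. With 3 libraries per group such values cannot tell whether the numbers pair the libraries. Among single list miRNAs, miR-205-5p changed sign with quantile normalization (0.057) and DESeq2 (0.027) and ran from -0.35 to 0.21 with 1 library left out. Those ranges were -0.14 to 0.27 for miR-141-3p, -0.10 to 0.17 for miR-200c-3p and -0.079 to 0.42 for miR-199a-3p. Depth limits low values, since 1 count was worth 6.24 scaled CPM in Sub-fertile replicate 1.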
